A study of Mus musculus with 35 samples.

Results

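The 26S proteasome is assembled from a barrel-shaped 20S core and 19S caps, and the genes of its constitutive form were followed in mouse podocytes at the mRNA level. The set held 33 genes, fixed by name: 7 subunits of the 20S alpha ring (*Psma1* to *Psma7*), 7 of the 20S beta ring (*Psmb1* to *Psmb7*), 6 ATPases of the 19S base (*Psmc1* to *Psmc6*), 4 scaffold subunits and ubiquitin receptors of the base (*Psmd1*, *Psmd2*, *Psmd4*, *Adrm1*), 8 subunits of the 19S lid (*Psmd3*, *Psmd6*, *Psmd7*, *Psmd8*, *Psmd11*, *Psmd12*, *Psmd13*, *Psmd14*) and the assembly factor *Pomp*. Each of the 33 symbols matched 1 of the 33292 gene identifiers of the expression table, and all 33 passed the filter on low values in every comparison. The question put to these genes was whether their mRNAs are higher on day 7 of treatment with bortezomib, an inhibitor of the proteasome that is given to patients with multiple myeloma.

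Podocytes came from young adult mice with the *Lmx1b* genotypes +/lox (labelled WT in the deposited data and called controls here), H77L/lox and C118F/lox. H77L and C118F are amino acid exchanges in the first and the second LIM domain of Lmx1b, a transcription factor of podocytes. All groups, the controls included, carried 1 floxed *Lmx1b* allele, an rtTA transgene active in podocytes, tetO::Cre and the mT/mG reporter, and all received doxycycline at 2 mg/ml in the drinking water, which switches on Cre in these cells. After recombination the controls therefore retained an intact *Lmx1b* allele and the knock-in mice the mutated one. Every other day the mice were injected with bortezomib (0.3 μg/g) or with DMSO alone, its solvent, and the green podocytes were sorted on day 7. There were 6 mice in each group, apart from 5 bortezomib-treated C118F/lox mice, and every mouse gave 1 library.

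The 20S core cuts proteins inside its chamber, where *Psmb6*, *Psmb7* and *Psmb5* encode the caspase-like, trypsin-like and chymotrypsin-like active sites. The 19S cap receives ubiquitinylated proteins, removes the ubiquitin chain and unfolds the substrate with its ring of ATPases. When the proteasome is inhibited, the transcription factor NRF1 (gene *Nfe2l1*) is known to be cleaved and to enter the nucleus, where it raises the transcription of proteasome subunit genes together through antioxidant response elements, a reaction called the bounce-back response. Bortezomib binds preferentially to the product of *Psmb5*.

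Since the bounce-back response acts through this element, the promoters of the members were searched for it in the window from 250 bases before to 50 bases after the annotated start (GRCm39, GENCODE vM39). The letters TGACNNNGC, on either strand, were found in 7 of the 33 member promoters (21.2%) and in 12.5% of the 21636 promoters of protein-coding genes. In 4 members the element lay on the coding strand close to the start. It began 18 bases before it in *Psmb5*, 9 in *Psmb6*, 1 in *Psmb2* and 34 in *Adrm1*. These 4 are shown from 100 bases before the start, 5′ to 3′, over 120 bases, with the element in capitals.
Psmb5, chr14:54855462-54855581, minus strand: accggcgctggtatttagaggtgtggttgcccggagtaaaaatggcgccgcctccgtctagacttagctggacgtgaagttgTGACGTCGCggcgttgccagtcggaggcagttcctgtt
Psmb6, chr11:70416083-70416202, plus strand: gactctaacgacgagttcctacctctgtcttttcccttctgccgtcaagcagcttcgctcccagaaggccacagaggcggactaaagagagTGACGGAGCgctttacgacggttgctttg
Psmb2, chr4:126571323-126571442, plus strand: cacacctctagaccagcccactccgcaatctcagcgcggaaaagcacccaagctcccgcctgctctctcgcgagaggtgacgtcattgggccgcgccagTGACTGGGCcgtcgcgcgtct
Adrm1, chr2:179813153-179813272, plus strand: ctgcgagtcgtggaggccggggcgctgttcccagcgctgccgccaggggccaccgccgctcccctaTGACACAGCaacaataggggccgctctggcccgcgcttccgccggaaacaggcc

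In *Psmc6*, *Psmd7* and *Psmd12* the letters were found on the other strand, 161, 101 and 201 bases before the start. The CCAAT box (CCAAT on either strand) was present in 14 of 33 member promoters, or 42.4%, against 40.0% of all promoters. It did not overlap with the element in any member. A match of letters is a description of the sequence and no measurement of binding.

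The values are TPM (transcripts per 1000000), in which the reads of a gene are divided by its length and each mouse sums to 1000000. All 33 genes were well expressed. In DMSO-treated controls the mean level ran from 54.6 ± 2.53 TPM (SD, n = 6) for *Adrm1*, which encodes a ubiquitin receptor of the cap, to 599 ± 53.6 TPM for *Psma6*, an alpha-ring subunit. These means stood at the 67.9th and the 97.6th percentile of the genes above 1 TPM in every mouse. Below *Psma6* came *Psmc5*, an ATPase, with 518 ± 75.3 TPM and *Psmb5* with 460 ± 42.5 TPM, and each of these levels lay within the summed SDs of its neighbour. *Psma6* had medians between 514 and 594 TPM in all 6 groups. Levels per length depend on the gene length behind the TPM values. This length was not given and was inferred as a number of bases that yields whole reads. Among the members it ran from 899 bases for *Psmb5* to 7265 for *Psmd1*. Added up, the members reached 6730, 7491 and 8344 TPM (lowest, median and highest mouse) in DMSO-treated controls and 6420, 7377 and 8292 TPM in bortezomib-treated controls. In H77L/lox mice the sums were 6029, 6608 and 6832 TPM under DMSO and 6827, 7473 and 8077 TPM under bortezomib. In C118F/lox mice they were 6116, 6856 and 7880 TPM and 6003, 6986 and 7442 TPM. Within each genotype the sums under DMSO and bortezomib overlapped, in H77L/lox mice only by the narrow stretch between 6827 and 6832 TPM.

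The reads recovered from the TPM steps ranged from 14038827 to 24149853 per mouse, apart from bortezomib-treated C118F/lox replicate 2 with 5269307, and the member with the fewest reads in any mouse had 345. Gene-level *Lmx1b* mRNA, which does not tell the floxed from the mutated allele, had a median of 71.5 TPM in DMSO-treated controls, 120 in DMSO-treated H77L/lox and 104 in DMSO-treated C118F/lox mice. The 10 podocyte markers summed to between 22754 and 37611 TPM in DMSO-treated controls, to between 5708 and 10101 TPM in DMSO-treated H77L/lox mice and to between 5345 and 12347 TPM in DMSO-treated C118F/lox mice. Not all of them were lower. By limma at an adjusted p under 0.05, 7 were lower and 2 higher in DMSO-treated H77L/lox mice than in controls (22.4% and 22.4% of all genes). In DMSO-treated C118F/lox mice 7 were lower and none higher (16.6% and 13.7% of all genes). Leukocyte markers (7 genes) summed to between 0.351 and 401 TPM over all groups. *Ptprc*, 1 of them, was at no more than 0.241 TPM in any mouse, so that other markers of the list made up the higher sums. Tubule markers (8 genes) reached 1585 TPM in 1 DMSO-treated control. The 4 mesangial markers summed to between 9.91 and 36.1 TPM in controls and to between 64.1 and 2238 TPM in knock-in mice. *Gata3* was at 5.18 TPM or less in every mouse. Only 1 of the 4, *Pdgfrb*, passed the filter on low values. It was higher in all 4 comparisons of knock-in mice with controls (3.10 to 3.90 on the log2 scale). The 6 endothelial markers summed to between 12.0 and 157 TPM. The part of these markers in the results was not tested. In such bulk libraries, fewer cells of a type and less RNA per cell cannot be told apart.

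In control podocytes, none of the 33 members passed the test for bortezomib against DMSO. By limma at an adjusted p under 0.05, 0 of 10659 genes were called (0%), as were 0 by limma voom. At an unadjusted p under 0.05 there were 923 genes. The members were split, with 15 above and 18 below 0 and a median log2 fold change of -0.01, against 0.01 over all genes tested. Of those genes, 52.0% lay above 0. *Psmb5* had 414, 452 and 521 TPM (lowest, median and highest mouse) under DMSO and 282, 440 and 545 TPM under bortezomib. The bortezomib-treated mice thus spread on both sides of the DMSO-treated ones, with a log2 fold change of -0.12 ± 0.14 (SE) and an adjusted p of 0.79. Of the 3 members with the lowest p, *Psmd3* (a lid subunit) had a log2 fold change of 0.21 ± 0.09, with 77.5, 89.8 and 116 TPM under DMSO and 97.4, 108 and 111 TPM under bortezomib (adjusted p = 0.573). *Psmb6* went the other way, from 336, 443 and 496 TPM to 279, 365 and 459 TPM, at -0.26 ± 0.12 (adjusted p = 0.573). *Psma1*, of the alpha ring, had 162, 175 and 203 TPM under DMSO and 179, 198 and 239 TPM under bortezomib (0.18 ± 0.09, adjusted p = 0.575). The groups overlapped for all 3 genes. Of the members, 1 had an unadjusted p under 0.05 with a higher level, where 4.61% of all genes did. The upper bound of the 95% interval of the log2 fold change was highest for *Psmd3* with 0.41.

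In H77L/lox podocytes the members leaned towards higher levels under bortezomib, and 1 of the 33 passed the test. Called genes made up 0.416% of the 10813 tested in the higher direction (45 genes) and 0.74% in the lower (80 genes). The called member was *Psmb6*. It had 269, 292 and 310 TPM under DMSO and 308, 377 and 413 TPM under bortezomib, so that only the lowest bortezomib-treated mouse fell within the range of the DMSO-treated mice. Its level rose 1.27-fold, a log2 fold change of 0.34 ± 0.08 (SE, adjusted p = 0.0471). This call was lost in 9 of the 12 fits that left out 1 mouse each, with adjusted p-values up to 0.111 and log2 fold changes between 0.31 and 0.39. *Psmb1*, a beta-ring subunit without an active site, came next. It moved from 121, 142 and 150 TPM to 150, 176 and 181 TPM, with 0.32 ± 0.07 (adjusted p = 0.0503). *Psmc5* had 326, 381 and 415 TPM under DMSO and 431, 465 and 512 TPM under bortezomib, with no overlap of the groups and 0.30 ± 0.07 (adjusted p = 0.0517). Both missed the threshold narrowly.

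*Psmb5* itself had 315, 327 and 388 TPM under DMSO and 343, 425 and 467 TPM under bortezomib, overlapping groups with a log2 fold change of 0.27 ± 0.09 (adjusted p = 0.116). All 14 genes of the 20S core lay above 0, with log2 fold changes from 0.16 to 0.34 and a median of 0.22. Of the 18 cap genes 15 lay above 0, with log2 fold changes from -0.05 to 0.30 and a median of 0.15, so that the ranges of core and cap overlapped. The 3 members below 0 were *Psmd11*, *Psmd8* and *Psmd2* with -0.05, -0.03 and -0.02. Over the 33 members the median was 0.18. Over all genes tested it was 0.00, with 50.5% of them above 0. An unadjusted p under 0.05 with a higher level was found for 19 members and for 10.5% of all genes. The members share libraries and vary together over mice, so these 19 are not 19 separate observations. The 7 members with the element in their promoter had a median of 0.15 and the 26 without it 0.19. Without bortezomib-treated replicate 1, 6 members were called, and without bortezomib-treated replicates 2, 3, 4, 5 or 6 or DMSO-treated replicates 2, 3 or 4, none was. The median of the members stayed between 0.16 and 0.21 in all 12 such fits.

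**Figure D1:**
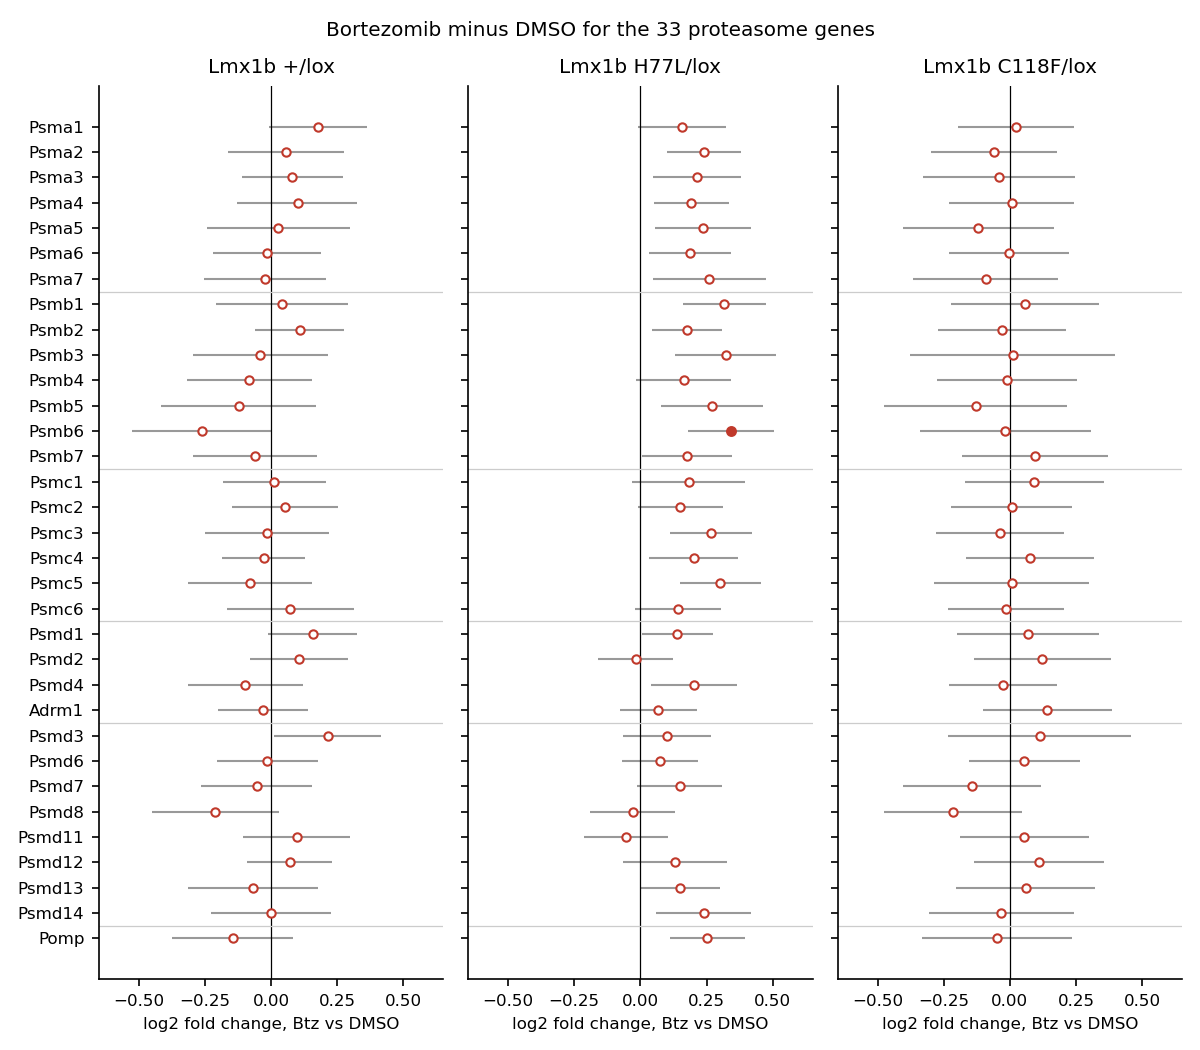
Log2 fold change on the log2(TPM + 1) scale of bortezomib against DMSO for the 33 genes in each genotype, grouped by subcomplex from the alpha ring at the top to *Pomp* at the bottom. Points are estimates, lines 95% intervals, and the filled point is the only member with an adjusted p under 0.05 (*Psmb6* in H77L/lox mice). In H77L/lox mice 30 points lie to the right of 0, against 15 in +/lox and 17 in C118F/lox mice.

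In C118F/lox podocytes no member passed, and 0 of 10814 genes did (0%), with 634 genes at an unadjusted p under 0.05 and 0 calls by limma voom. Of the 33 members 17 lay above 0, with a median log2 fold change of 0.01. Over all genes the median was 0.06, with 62.6% above 0. None of the members had an unadjusted p under 0.05, where 3.27% of all genes did in the higher direction. *Psmb5* had 281, 419 and 445 TPM (lowest, median and highest mouse) under DMSO. The 5 bortezomib-treated mice had 376, 377, 363, 367 and 256 TPM, of which 4 lay within that range and the last below it (-0.13 ± 0.16, adjusted p = 0.872). *Psmd8*, a lid subunit, showed the lowest p, with 175, 193 and 274 TPM under DMSO and between 172 and 186 TPM under bortezomib (-0.22 ± 0.12, adjusted p = 0.815). *Adrm1* had 45.3, 53.9 and 61.4 TPM under DMSO and between 52.8 and 66.0 TPM under bortezomib (0.14 ± 0.11, adjusted p = 0.825). *Psmd7*, also of the lid, had between 220 and 321 TPM under DMSO and between 205 and 253 TPM under bortezomib (-0.14 ± 0.12, adjusted p = 0.825). In all 3 cases the groups overlapped. The highest upper bound of a 95% interval was 0.46, again for *Psmd3*. Without the library of low depth the median of the members was 0.01 and no member was called.

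Over all 3 genotypes, with genotype as a term of the fit, bortezomib changed no member at an adjusted p under 0.05. Called genes were 0.0796% of 11306 in the higher and 0.283% in the lower direction. The log2 fold changes of the members were small, with 31 of 33 above 0 and a median of 0.07. Over all genes the median was 0.03, with 58.4% above 0. *Psmd1*, the large scaffold subunit of the cap, had medians of 133 and 148 TPM in controls, 146 and 161 TPM in H77L/lox and 134 and 138 TPM in C118F/lox mice under DMSO and bortezomib. Its log2 fold change was 0.12 ± 0.05 (adjusted p = 0.239), *Psma1* 0.12 ± 0.05 (adjusted p = 0.242) and *Psmd8* -0.15 ± 0.06 (adjusted p = 0.255). *Psmb5* had 0.01 ± 0.08 and *Psmb6* 0.02 ± 0.08. An unadjusted p under 0.05 with a higher level was found for 5 members and 7.66% of all genes.

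**Figure D2:**
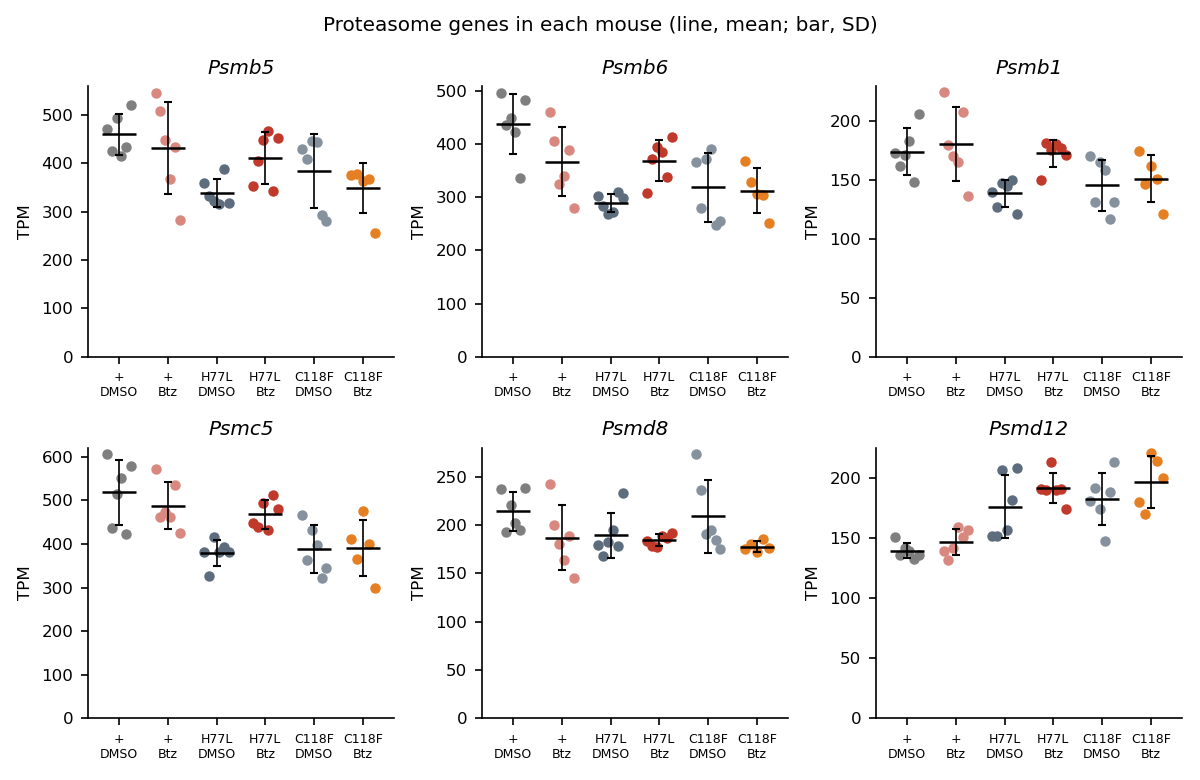
TPM of 6 members in each mouse (y axes start at 0), with the mean as a line and the SD as a bar. The x axis gives the *Lmx1b* allele beside the floxed one (+, H77L or C118F) and the treatment. For *Psmb6* the 6 DMSO-treated H77L/lox mice sit between 269 and 310 TPM, and 5 of the 6 bortezomib-treated ones above 310, while for *Psmd12* all knock-in groups have means of 176 TPM or more against 140 and 147 TPM in controls.

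The difference between genotypes in the response to bortezomib was tested as an interaction. For H77L/lox against controls, 0 of 11163 genes were called (0%), members included, with 2037 genes at an unadjusted p under 0.05. By limma voom no gene was called for any of the 3 interactions. The difference was above 0 for 28 of 33 members, with a median of 0.20 on the log2 scale. Among all genes it was above 0 for 48.3%, with a median of -0.01. It was widest for *Psmb6*, with 0.60 ± 0.15 (adjusted p = 0.0814), which joins the higher level in H77L/lox mice with the lower level in controls. For *Psmb5* it was 0.39 ± 0.17 (adjusted p = 0.217). An unadjusted p under 0.05 in this direction was found for 8 members and 9.48% of all genes. *Psmb6* was called when bortezomib-treated control replicate 1 (adjusted p = 0.0283) or DMSO-treated control replicate 5 (adjusted p = 0.0324) was left out. For H77L/lox against C118F/lox, 0 of 11046 genes were called (0%), with 840 at an unadjusted p under 0.05. Here 29 members lay above 0 with a median of 0.19, against 40.6% of all genes and a median of -0.07. An unadjusted p under 0.05 was found for 8 members, against 2.97% of all genes in that direction. *Psma2* had the lowest p, at 0.30 ± 0.12 (adjusted p = 0.65). For C118F/lox against controls, 0 of 11197 genes were called (0%), with 560 at an unadjusted p under 0.05. Here 16 members lay above 0 with a median of -0.01, against 60.7% of all genes and a median of 0.06. A difference between the genotypes in the response of the proteasome genes was therefore not shown at the adjusted threshold.

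Under DMSO, many genes differed between knock-in mice and controls, the members among them. In DMSO-treated H77L/lox podocytes, 13 members were lower and 3 higher than in DMSO-treated controls, where 22.4% of all 10964 genes were called lower and 22.4% higher. The same H77L/lox mice are the reference of the bortezomib comparison above. The core carried most of the lower calls. All 7 beta-ring genes lay below 0 and 5 of them fell (*Psmb1*, *Psmb3*, *Psmb4*, *Psmb5*, *Psmb6*), as did 3 of 7 alpha-ring genes (*Psma2*, *Psma5*, *Psma7*). Of the cap, *Psmc3*, *Psmc5*, *Psmd4* and *Psmd13* fell and *Psmd2*, *Psmd11* and *Psmd12* rose. *Pomp*, which assists the assembly of the 20S core, fell as well.

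*Psmb3*, a beta-ring subunit, had 215, 243 and 283 TPM in controls and 150, 167 and 188 TPM in H77L/lox mice, without overlap (-0.53 ± 0.08, adjusted p = 0.000154). *Psmb6* had 336, 443 and 496 TPM and 269, 292 and 310 TPM, again without overlap (-0.59 ± 0.09, adjusted p = 0.00019). *Psmb5* likewise separated the groups, with 414, 452 and 521 TPM against 315, 327 and 388 TPM (-0.44 ± 0.08, adjusted p = 0.000855). For these 3 genes every H77L/lox mouse was below every control. This also held for *Psma2*, *Psmc5* and *Psmd4*, while for *Psmd11* and *Psmd12* every H77L/lox mouse was above every control. The share of all genes that separate in this way was not counted. In the other direction, *Psmd12*, a lid subunit, had 133, 138 and 151 TPM in controls and 152, 170 and 208 TPM in H77L/lox mice (0.32 ± 0.09, adjusted p = 0.0122). The median over the 33 members was -0.18, against -0.01 over all genes tested. None passed the cutoffs of the study for these comparisons, an adjusted p under 0.001 together with an absolute log2 fold change above 2.

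In DMSO-treated C118F/lox podocytes, 4 members were lower (*Psmb3*, *Psmb6*, *Psmc5*, *Psmd4*) and 1 higher (*Psmd12*) than in the same DMSO-treated controls, where 16.6% of 10899 genes were called lower and 13.7% higher. *Psmd12* had 148, 184 and 213 TPM against 133, 138 and 151 TPM in controls (0.38 ± 0.09, adjusted p = 0.00743). *Psmb3* had 117, 184 and 214 TPM against 215, 243 and 283 TPM, just without overlap (-0.54 ± 0.15, adjusted p = 0.016). *Psmc5* had 322, 380 and 467 TPM against 423, 533 and 606 TPM (-0.42 ± 0.12, adjusted p = 0.0195). *Psmb5* had 281, 419 and 445 TPM and did not pass (-0.28 ± 0.13, adjusted p = 0.127). *Psmd4* was called in 3 of the 12 fits that left out 1 mouse each. The median over the members, -0.08, lay close to that of all genes, -0.06. After scaling of the mice by their median ratios no member was called lower, and 2 were called higher, *Psmd12* among them.

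Under bortezomib, 1 member (*Psmd12*) was higher and none lower in H77L/lox than in control podocytes, where 12.5% of 10805 genes were called higher and 11% lower. *Psmd12* had 132, 147 and 159 TPM in bortezomib-treated controls and 174, 191 and 213 TPM in H77L/lox mice, without overlap (0.38 ± 0.07, adjusted p = 0.00102). *Psmc1*, an ATPase, had 312, 353 and 371 TPM against 343, 399 and 489 TPM (0.22 ± 0.09, adjusted p = 0.0786), and *Psma3*, of the alpha ring, 134, 143 and 172 TPM against 149, 173 and 191 TPM (0.21 ± 0.09, adjusted p = 0.11). *Psmc1* passed when bortezomib-treated H77L/lox replicate 2 was left out (adjusted p = 0.0374). The members as a whole had a median of 0.00, with 16 above 0. Over all genes the median was -0.01, with 48.1% above 0. In bortezomib-treated C118F/lox podocytes, 3 members were lower (*Psma7*, *Psmb3*, *Psmc3*) and 1 higher (*Psmd12*), where 12.4% of 10916 genes were called lower and 15.1% higher. The 5 C118F/lox mice had 180, 170, 221, 214 and 200 TPM for *Psmd12*, all above the 6 controls (0.42 ± 0.10, adjusted p = 0.00473). *Psmb3* had between 133 and 207 TPM against 176, 241 and 296 TPM in controls (-0.49 ± 0.14, adjusted p = 0.0188), and *Psma7* between 144 and 187 TPM against 181, 215 and 267 TPM (-0.37 ± 0.11, adjusted p = 0.023). Without C118F/lox replicate 5 no member was lower, and without control replicate 6 there were 7. *Psmd12* was thus called higher in all 4 comparisons of knock-in mice with controls, which share their groups with the bortezomib comparisons. With the mouse number as a covariate it was no longer called in DMSO-treated H77L/lox mice or in bortezomib-treated C118F/lox mice (0.24, adjusted p = 0.128).

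Gene length moved with these results. In DMSO-treated H77L/lox against control mice, the median log2 fold change of all genes was -0.42 for the 526 genes up to 1200 bases, -0.27 from 1200 to 2000, -0.14 from 2000 to 3000, -0.02 from 3000 to 5000 and 0.13 for longer genes. The members in the same classes had -0.44 (1 gene), -0.30 (7), -0.10 (10), -0.18 (11) and -0.01 (4). For bortezomib against DMSO in H77L/lox mice the order was turned round, from 0.16 for the shortest class through 0.08, 0.07 and 0.01 to -0.04 for the longest. The members had 0.27, 0.19, 0.20, 0.15 and 0.14 in these classes, above the genes of like length in each. In controls the shortest class had -0.17 under bortezomib, and in C118F/lox against control mice under DMSO -0.33. When the deviation of genes of like length was subtracted in each mouse, the median of the members was 0.12 in H77L/lox mice under bortezomib, with 29 of 33 above 0 and no call, and -0.06 in DMSO-treated H77L/lox against control mice, with 8 lower and 5 higher. *Psmb5*, the shortest member, then no longer passed in the latter comparison (-0.11, adjusted p = 0.298). The part of gene length in the differences of the members was not tested beyond this.

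**Figure D3:**
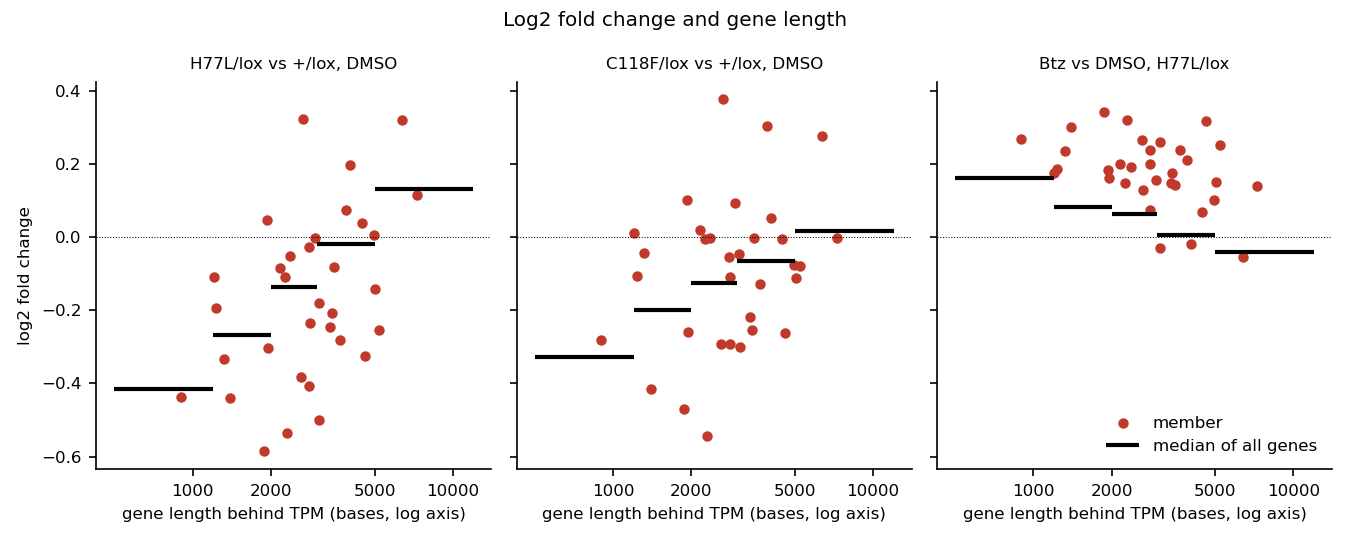
Log2 fold change of the 33 members (points) against the gene length behind the TPM values (log axis) in 3 comparisons, with the median of all genes tested in each of 5 length classes as black lines. In the first panel the black lines climb from -0.42 to 0.13, in the third they fall from 0.16 to -0.04, and 30 of the 33 points of the third panel lie above 0.

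The levels were also set out by mouse. Relative to the mean of the DMSO-treated controls, the median of the members ran from -0.17 to 0.15 within the DMSO-treated controls themselves and from -0.21 to 0.16 in the bortezomib-treated controls. In H77L/lox mice it ran from -0.26 to -0.03 under DMSO and from -0.17 to 0.14 under bortezomib, in C118F/lox mice from -0.23 to 0.01 and from -0.28 to 0.01. The groups of each genotype overlapped. Other genes up to 1200 bases had medians from -0.42 to -0.24 in DMSO-treated and from -0.23 to -0.10 in bortezomib-treated H77L/lox mice, 2 ranges without overlap. Members and short genes did not always go together, as in DMSO-treated H77L/lox replicate 6 (-0.03 and -0.36) and DMSO-treated C118F/lox replicate 4 (-0.10 and 0.05). The podocyte markers summed to 5708, 9144 and 10101 TPM in DMSO-treated and 10080, 11007 and 14218 TPM in bortezomib-treated H77L/lox mice, with 6 of 10 above 0 and none called. In C118F/lox mice, where the median of the members was 0.01, they summed to 5345, 7452 and 12347 TPM and to between 8129 and 11869 TPM, with 9 of 10 above 0 and none called.

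**Figure D4:**
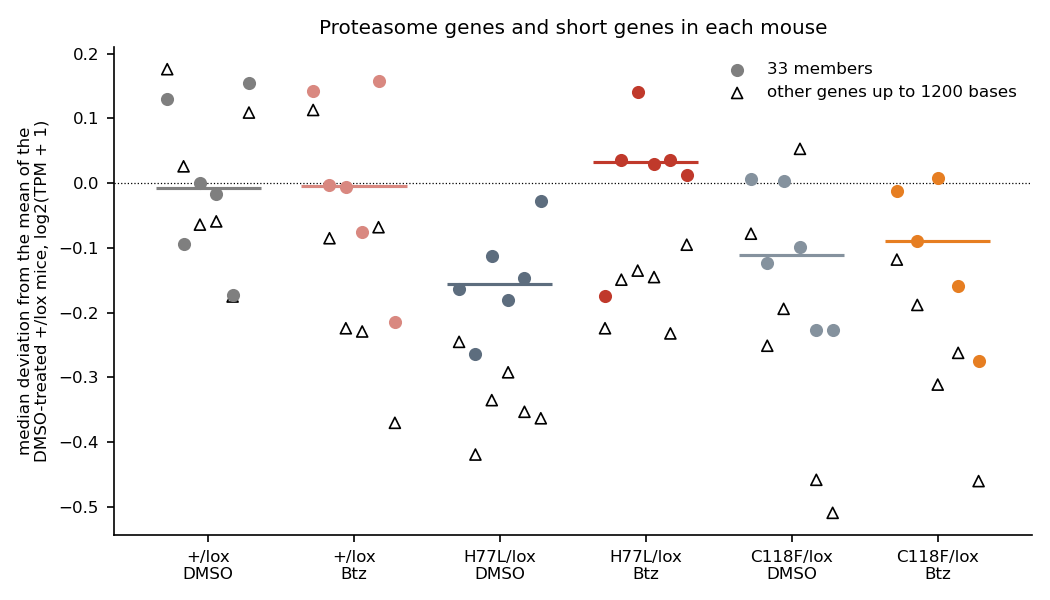
Each mouse's median deviation of the 33 members (filled points, with the group median as a line) and of the other genes up to 1200 bases (open triangles) from the mean of the DMSO-treated +/lox mice, in log2(TPM + 1). The members of DMSO-treated H77L/lox mice lie between -0.26 and -0.03 and those of bortezomib-treated H77L/lox mice between -0.17 and 0.14. The triangles of these groups lie between -0.42 and -0.24 and between -0.23 and -0.10.

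The members varied together within groups. After removal of the group means, the correlation of 2 members over the 35 mice had a median of 0.46 (528 pairs, from -0.39 to 0.90), and of 2 genes of the 20S core 0.64 (91 pairs). Between the members and all genes above 1 TPM in every mouse, the members included, the median was -0.02. *Psmd14*, the deubiquitinating subunit of the lid, and *Psmb1* went most with the others (median correlation 0.64 each), and *Psmd3*, *Psmd12* and *Psmd2* least (0.05, 0.05 and 0.07). These values describe libraries that share depth and length effects.

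The calls in the lists of related genes stand beside the shares of all genes called higher and lower, which were 22.4% and 22.4% in H77L/lox and 13.7% and 16.6% in C118F/lox mice against controls under DMSO, and 12.5% and 11% and 15.1% and 12.4% under bortezomib. For bortezomib against DMSO they were 0.416% and 0.74% in H77L/lox mice, and 0% in controls and in C118F/lox mice. Among the related genes, the inducible catalytic subunits *Psmb8*, *Psmb9* and *Psmb10*, which replace *Psmb5*, *Psmb6* and *Psmb7* in the immunoproteasome, were at a median of 0.787%, 3.16% and 29.4% of the sum with their constitutive partner in DMSO-treated controls. In DMSO-treated C118F/lox mice the medians were 6.19%, 7.64% and 56.6%, and the highest values, taken for each pair separately, were 26.7%, 24.1% and 78.9%. *Psmb8* (2.39 ± 0.62, adjusted p = 0.00977) and *Psmb10* (1.47 ± 0.35, adjusted p = 0.00551) rose there against controls, the only 2 of the 5 immunoproteasome and PA28 genes to be called. In DMSO-treated H77L/lox mice *Psmb10* rose (0.50 ± 0.14, adjusted p = 0.00934) and *Psme2* fell (-0.42 ± 0.10, adjusted p = 0.00346), while under bortezomib *Psmb9* fell in C118F/lox mice (-0.72 ± 0.24, adjusted p = 0.0382). None of the 5 was called for bortezomib against DMSO in any genotype. The largest such values were seen in C118F/lox mice, with -2.03 ± 0.54 for *Psmb9* (adjusted p = 0.694) and -2.23 ± 0.67 for *Psmb8* (adjusted p = 0.784).

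*Psme4*, which encodes the PA200 activator, rose in all 4 comparisons of knock-in mice with controls. It had 17.6, 22.8 and 24.9 TPM in DMSO-treated controls and 32.6, 38.2 and 41.9 TPM in DMSO-treated H77L/lox mice (0.73 ± 0.10, adjusted p = 5.01e-05). The other differences were 0.56 in DMSO-treated C118F/lox, 0.50 in bortezomib-treated H77L/lox and 0.94 in bortezomib-treated C118F/lox mice. *Sem1*, a small cap subunit, fell in DMSO-treated H77L/lox mice (-0.33 ± 0.10, adjusted p = 0.0154). The thymus-specific *Psmb11* was at no more than 0.221 TPM and the testis-specific *Psma8* at no more than 2.48 TPM in any mouse. Of 8 assembly chaperones, 4 fell in DMSO-treated H77L/lox mice (*Psmg4*, *Psmg3*, *Psmd10*, *Psmg1*; -0.64, -0.56, -0.29 and -0.43), 1 in DMSO-treated C118F/lox mice (*Psmg3*, -0.64) and 2 in bortezomib-treated C118F/lox mice (*Psmg1* and *Psmd10*, -0.42 and -0.37), where 22.4%, 16.6% and 12.4% of all genes were called lower. None was called for bortezomib, where *Psmg1* in H77L/lox mice came closest with 0.39 ± 0.11 (adjusted p = 0.0788) and *Psmg2* had 0.22 ± 0.07 (adjusted p = 0.111).

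Of the 11 genes of the NRF1 pathway (its factors, processing enzymes and partners), none was called for bortezomib in any genotype. In controls and C118F/lox mice no gene at all was called, so the missing calls there are not particular to this list. Under bortezomib 9 of the 11 lay above 0 in controls (median 0.16), 5 in H77L/lox (-0.01) and 11 in C118F/lox mice (0.19). Of all genes, 52.0%, 50.5% and 62.6% lay above 0. *Nfe2l1* had 483, 653 and 809 TPM in DMSO-treated and 564, 625 and 704 TPM in bortezomib-treated controls. In H77L/lox mice it had 855, 984 and 1098 TPM under DMSO and 876, 1041 and 1086 TPM under bortezomib, and in C118F/lox mice 695, 875 and 1127 TPM under DMSO and between 927 and 1185 TPM under bortezomib. It was called higher than in controls in all 4 comparisons, with log2 fold changes of 0.58 and 0.41 under DMSO and 0.70 and 0.76 under bortezomib for H77L/lox and C118F/lox. *Nfe2l1* mRNA does not report the cleavage of the protein. *Maff*, a small partner of NRF factors, rose in both DMSO-treated lines (2.26 ± 0.30 and 2.48 ± 0.39), and *Sel1l* of the degradation machinery of the endoplasmic reticulum in DMSO-treated H77L/lox (0.51 ± 0.15) and bortezomib-treated C118F/lox mice (0.41 ± 0.12). The lowest p-values for bortezomib were those of *Nfe2l2* in controls (0.43 ± 0.15, adjusted p = 0.56), *Sel1l* in H77L/lox (-0.27 ± 0.09, adjusted p = 0.133) and *Ddi2*, the protease that cleaves NRF1, in C118F/lox mice (0.50 ± 0.23, adjusted p = 0.813).

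Of the 10 proteasome-associated ubiquitin factors none was called for bortezomib. In DMSO-treated H77L/lox mice 4 were called higher and 2 lower than in controls. *Zfand5*, *Ubqln2*, *Ube3c* and *Rad23b* rose (0.60, 0.53, 0.37 and 0.23), and *Uchl5* was 1 of the 2 that fell (-0.46). In DMSO-treated C118F/lox mice none was called higher and 2 were called lower, *Ubqln4* among them (-0.42). *Ubqln4* was also the only 1 called in the bortezomib-treated C118F/lox mice (-0.27). For bortezomib in H77L/lox mice, 0.416% of all genes were called higher. Of 17 genes of the response to misfolded proteins and oxidative stress, 1 was called for bortezomib, in H77L/lox mice. This was *Dnajb1*, a cofactor of the heat shock chaperone Hsp70, with 77, 163 and 412 TPM under DMSO and 252, 832 and 1384 TPM under bortezomib (2.11 ± 0.44, adjusted p = 0.0361), with overlap of the groups. *Hspa1b*, which encodes Hsp70, had 52.7, 323 and 1221 TPM and 572, 1386 and 2897 TPM in these mice, overlapping groups that did not pass (2.34 ± 0.63, adjusted p = 0.0757). In bortezomib-treated controls *Hspa1b* had 19.3, 126 and 167 TPM, against 94.7, 482 and 903 TPM under DMSO (-1.97 ± 0.65, adjusted p = 0.56). Between knock-in lines and controls, 7 of the 17 were higher and 1 lower (*Ubb*) in H77L/lox mice under either treatment, 5 higher and 1 lower in DMSO-treated C118F/lox mice and 3 higher and 1 lower in bortezomib-treated C118F/lox mice. Of all genes, 22.4% were called higher in H77L/lox mice under DMSO and 12.5% under bortezomib, and 13.7% and 15.1% in C118F/lox mice, so that the last count lay close to the share of all genes. *Bag3*, *Sqstm1* and *Srxn1* were among the higher genes in all 4 comparisons, and *Ubb*, a ubiquitin gene, was the lower one each time.

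**Figure D5:**
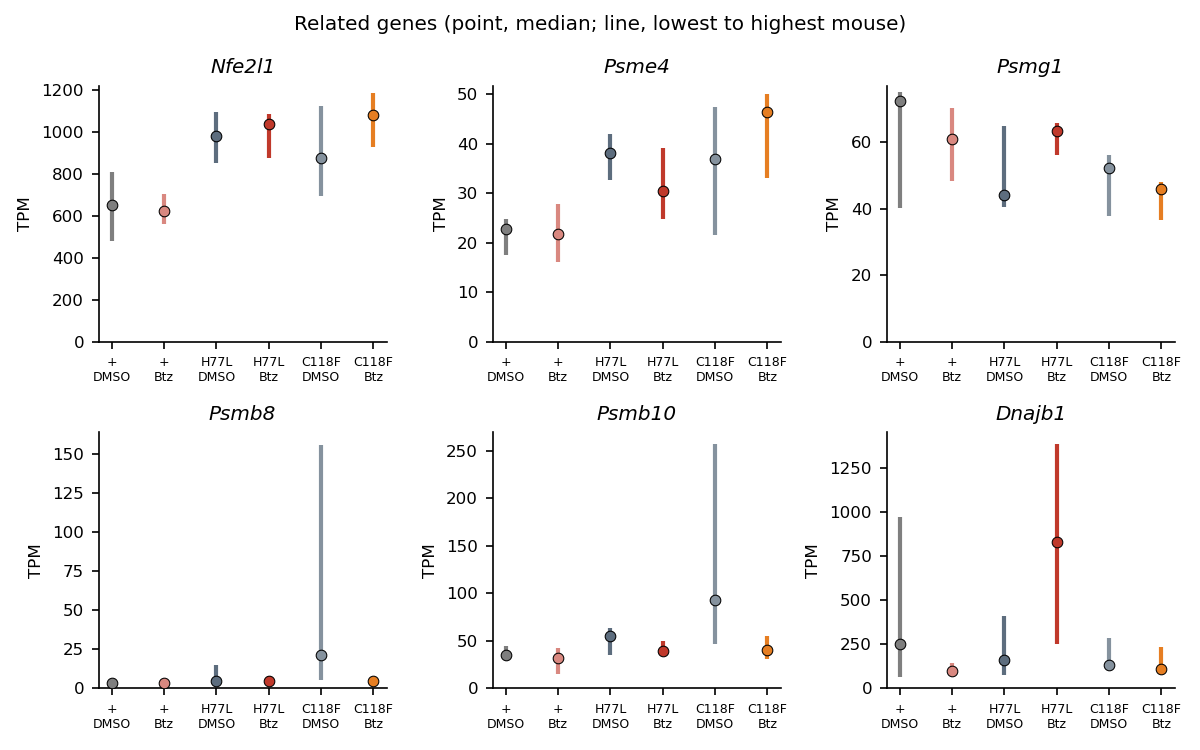
TPM of 6 related genes by group (y axes start at 0), with the median as a point and a line from the lowest to the highest mouse. *Nfe2l1* and *Psme4* have higher medians in all 4 knock-in groups than in both control groups, *Psmb8* and *Psmb10* have the highest medians in DMSO-treated C118F/lox mice, and *Dnajb1* has its highest median, 832 TPM, in bortezomib-treated H77L/lox mice.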

How the data were processed

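RNA of sorted podocytes from 35 mice was sequenced from 1 end after poly(A) selection. The authors trimmed the reads with Trim Galore 0.6.7, aligned them to GRCm39 with STAR, assessed duplicates with Picard and counted reads per gene with featureCounts 1.6.3. For a read that maps to several places, the aligner reported 1 place at random. Whether such reads were counted is not given, so levels of genes with near-identical copies are less certain. The deposited values are TPM per gene, and the step from counts to TPM is not given in the sources used here.

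Whole reads were recovered from the TPM steps for all 23943 genes above 0 (tolerance 0.001 of a read) and used for the depth and, as an alternative, in limma voom. The annotated length gave whole reads for 4492 genes, and for 19451 the length was searched. The length classes rest on these inferred lengths. Since PCR can copy a molecule, errors were taken from the spread between mice. Genes above 1 TPM in every mouse of at least 1 group were fitted as log2(TPM + 1) with limma 3.58.1 in R 4.3.3 (lmFit, eBayes with trend) using only mice from the 2 or 4 groups of a comparison (all 6 for bortezomib over all genotypes), with Benjamini-Hochberg adjustment over all genes. Fold changes are on the log2(TPM + 1) scale. Called means an adjusted p under 0.05, and intervals are 95%, not adjusted for the number of genes. Each mouse is a replicate, and mice were not paired. The fits were also run on simulated data in which the noise of each gene was independent. The members of the real data varied together, so these runs do not test counts of members that move together.

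Single members were described in full if they were *Psmb5*, the highest or lowest in DMSO-treated controls or among the 3 lowest p-values of a comparison; of each related list, the called genes (at most 4) or the 2 with the lowest p, shortened where lists had many. Single items of the design and of the related lists are not reported here. *Adrm1* was the lowest and *Psma6* the highest member. *Psmb6* in the overall comparison, the genes named for the interactions, *Hspa1b*, *Nfe2l1* across groups and the ranges by mouse were added after their values were seen. The members and lists were chosen with earlier results of these data known. The list of assembly chaperones had 9 genes, 1 of which had no match in the table. Promoters were read from GRCm39 at the canonical start in GENCODE vM39. Alternatives were another pseudocount (0.1), no filter, scaling by median ratios, all 35 mice in 1 fit, the mouse number as a covariate, the cutoffs of the study, leaving out each mouse and, chosen after seeing the data, limma voom and a correction for gene length in 20 bins.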

Additional observations from a re-analysis of the deposited data

Results flagged for a closer look

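In 9 of 204 sets of values (33 members and their median in 6 groups), the highest or the lowest mouse lay apart from the rest of its group, with a gap to its neighbour that exceeded Dixon's 95% limit. Chance alone gives about 1 in 20, and 4.4% were found. Bortezomib-treated H77L/lox replicate 1 was the lowest mouse for *Psmb1* (150 TPM, the next at 171), *Psmc6* (132 TPM, the next at 154) and *Psmd13* (114 TPM, the next at 141), and *Psmd11* was highest in replicate 3 of that group with 107 TPM. Among DMSO-treated C118F/lox mice, replicate 1 was the highest for *Psma3* (252 TPM, the next at 166) and *Psma4* (203 TPM, the next at 167). *Psmb5* was lowest in bortezomib-treated C118F/lox replicate 5, with 256 TPM against 363 TPM in the next mouse. *Psma5* was lowest in DMSO-treated control replicate 2 with 144 TPM, and *Psmd13* highest in DMSO-treated H77L/lox replicate 2 with 135 TPM.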

How the results depend on the processing

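The counts of called members moved with the settings in several comparisons. For bortezomib in H77L/lox mice the count was 1 as reported, 2 with a pseudocount of 0.1, 3 with the mouse number as a covariate and 0 without a filter, with median-ratio scaling, with all 35 mice in 1 fit, with limma voom and after removal of the length trend. Leaving out 1 mouse gave 0 to 6. In the comparison of DMSO-treated H77L/lox mice with controls, 16 members were called, and 8 (all lower) with the mouse number as a covariate; leaving out 1 mouse gave 13 to 19. For DMSO-treated C118F/lox mice the count of 5 became 2 with median-ratio scaling, 12 with all 35 mice, 1 with the mouse number and 3 after removal of the length trend, and leaving out 1 mouse gave 4 to 6. Under bortezomib, H77L/lox against controls had 1 call, 2 after removal of the length trend and 1 to 2 without 1 mouse, and C118F/lox against controls had 4, 7 with all 35 mice, 0 with the mouse number and 2 to 8 without 1 mouse. The cutoffs of the study gave 0 in all 4 of these comparisons. The interaction of H77L/lox and controls had 0 calls and 0 to 1 without 1 mouse. *Psmb5*, which was not called for bortezomib under any setting, changed sign in controls with the mouse number (0.041) and after removal of the length trend (0.021), in C118F/lox mice with the mouse number (0.066), and over all genotypes with median-ratio scaling (-0.021) and limma voom (-0.02); without 1 mouse it ran from -0.011 to 0.052 there. The cause of these shifts was not tested. The mouse number is the animal's number in the labels and no recorded batch. It differed between the groups. Under DMSO its median was 46512.5 in controls, 48202.5 in H77L/lox and 47411.5 in C118F/lox mice, and under bortezomib 46944, 47992 and 50091. Fits with this covariate therefore cannot fully tell the mouse number from the genotype. No paired analysis was possible because the labels give no replicate numbers shared between groups. The median SE of a member for bortezomib was 0.10 on the log2 scale in controls, 0.07 in H77L/lox and 0.12 in C118F/lox mice, which limits the changes that could be seen.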
